A study of Mus musculus with 6 samples.

Results

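Mb, Ckm and Eno3 are muscle genes for oxygen supply and rapid energy supply. They were taken by symbol from a deposited table of 570 rows, of which 525 carry a gene symbol, and all 3 were found. They were chosen by their measured levels in the control columns of this table, so those levels are a description and were not tested. The series asks how interferon-gamma changes osteoclasts, the multinucleated cells that resorb bone. Its 6 samples are 3 cultures given interferon-gamma and 3 controls, all labelled day 3. Every culture was wild-type C57BL/6, and osteoclast formation was driven in both groups by RANKL and M-CSF. Value columns could be matched by name to the 3 controls and to 0 interferon-gamma samples, so the levels below are those of the columns labelled control and no gene is reported as changed.

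Skeletal muscle draws on several stores to keep contracting. Myoglobin, the product of Mb, is a haem protein of the muscle cytoplasm that binds oxygen and releases it as mitochondria use it up. The muscle creatine kinase encoded by Ckm moves phosphate between phosphocreatine and ADP and so restores ATP within a contraction. Eno3 encodes the beta enolase of adult muscle, the glycolytic enzyme that turns phosphoglycerate into phosphoenolpyruvate. None of these genes is a textbook marker of osteoclasts. In bulk RNA, fewer cells of a type and less RNA per cell cannot be told apart.

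The 3 genes lie on chromosomes 15 (Mb), 7 (Ckm) and 11 (Eno3), so they share no neighbourhood. Their promoters are shown because their sequence was not used to choose the genes. Each stretch runs from 250 bases before to 50 bases after the start in RefSeq on GRCm38.p6, the start nearest to that of the principal GENCODE transcript. Capitals mark every E-box, the motif CANNTG read by muscle regulatory factors and many other factors of the same class. The positions are chr15:77022738-77023037 on the minus strand for Mb, chr7:19410844-19411143 on the plus strand for Ckm and chr11:70656926-70657225 on the plus strand for Eno3.
Mb: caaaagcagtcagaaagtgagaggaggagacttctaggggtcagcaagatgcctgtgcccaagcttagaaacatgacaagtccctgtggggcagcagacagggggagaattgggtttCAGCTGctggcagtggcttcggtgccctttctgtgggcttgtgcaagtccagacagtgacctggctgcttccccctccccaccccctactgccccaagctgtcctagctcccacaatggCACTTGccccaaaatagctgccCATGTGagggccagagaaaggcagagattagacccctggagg
Ckm: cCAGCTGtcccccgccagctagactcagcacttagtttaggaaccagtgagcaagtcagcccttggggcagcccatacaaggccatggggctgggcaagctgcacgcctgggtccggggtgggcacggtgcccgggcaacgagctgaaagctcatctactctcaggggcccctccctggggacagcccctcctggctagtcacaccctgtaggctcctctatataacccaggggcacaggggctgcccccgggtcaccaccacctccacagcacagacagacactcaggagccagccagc
Eno3: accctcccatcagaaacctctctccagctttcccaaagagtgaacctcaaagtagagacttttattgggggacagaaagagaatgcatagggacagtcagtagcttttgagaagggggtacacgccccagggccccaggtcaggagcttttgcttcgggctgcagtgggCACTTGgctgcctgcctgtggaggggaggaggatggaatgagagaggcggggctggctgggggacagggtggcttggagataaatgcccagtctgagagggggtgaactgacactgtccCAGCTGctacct

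Each of the 3 windows holds 1 copy of CAGCTG, the E-box with a GC core, counted on both strands. Counted from the start, with no position zero, it begins at position -133 in Mb, at -249 in Ckm and at 39 in Eno3. In Ckm this is the second base of the window. The RefSeq start lies 69 bases from the GENCODE start in Ckm and 28 bases in Eno3; counted from the GENCODE starts the copies begin at -180 and at 11, and would still lie within such a window. Over 32851 mouse promoter windows of the same length, 16.3% hold this motif, and so do 21.7% of the 465 windows that belong to genes of the table. Any E-box at all is common, at 72.3% of all windows and 73.3% of those of genes of the table. Mb has 3, Eno3 has 2 and Ckm has 1, with the CAGCTG copies included. The MCAT element, CATTCC, was found once in Eno3, at position -47, and in 14.7% of all windows and 16.3% of those of genes of the table. The TATA box in the form TATAAA, the MEF2 element and the CArG box had 0 matches in the 3 windows. They occur in 13.6%, 3.19% and 1.63% of all windows. Among windows of genes of the table the shares are 21.5%, 6.45% and 2.58%. Each motif was searched as a fixed pattern, so variant forms were not counted. The Ckm window, for example, holds tatataa, which the form TATAAA misses. A match is a description of letters and says nothing on binding. Mb has 3 starts in the RefSeq table, of which 1 is printed; the window 60 bases away also holds 1 CAGCTG, and that of the distant start, 27881 bases away, holds 0.

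Mb had the highest level of the 3 genes. Its normalised values were 147 in control 1, 152 in control 2 and 152 in control 3, a mean of 150.2 ± 3.17 (SD, n = 3). Control 1 was the lowest column, and the highest column exceeded it 1.04 times. By mean level Mb stood at place 25 of the 570 rows, with 95.8% of the other rows below it.

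Ckm, the creatine kinase, came next. It had 55.3 in control 1, 57.0 in control 2 and 56.5 in control 3, and its mean was 56.3 ± 0.876 (SD, n = 3). It stood at place 36, and control 1 was again the lowest column. Eno3, the enolase, had 33.4, 35.0 and 35.5 in controls 1, 2 and 3, a mean of 34.6 ± 1.13 (SD, n = 3) at place 42. The ranges of the 3 genes did not overlap. The deposited values name no unit. Whether they were divided by transcript length is not given. Whole counts scaled only by column would share a common step below 1, and none was seen. That alone does not show which other scaling was used, so the order between genes is given on the deposited scale only.

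**Figure D1:**
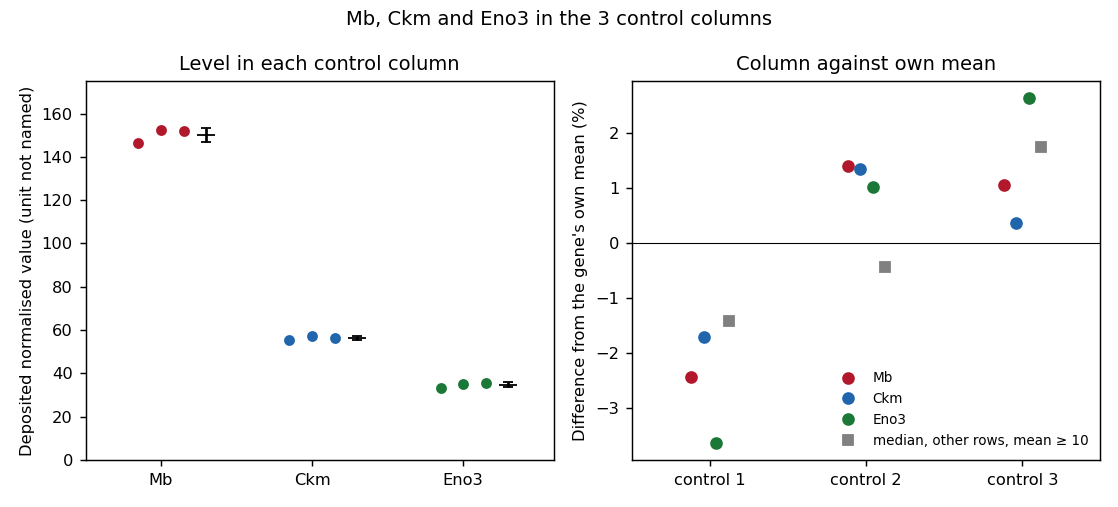
Left, the deposited normalised value (vertical axis, unit not named) of Mb, Ckm and Eno3, with 1 point for each of controls 1, 2 and 3 from left to right and, beside them, the mean with its SD (n = 3). Right, each column's difference from the gene's own mean in percent; grey squares give the median over the 82 other rows averaging at least 10. Mb lies near 150.2, Ckm near 56.3 and Eno3 near 34.6, and control 1 is the lowest column for each.

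The proportions between the genes differed little between columns. Within a column a ratio does not depend on how the column was scaled. The Mb value was 2.65, 2.67 and 2.69 times the Ckm value in controls 1, 2 and 3, a mean of 2.67 ± 0.0190 (SD, n = 3). Mb over Eno3 was 4.34 ± 0.0619 and Ckm over Eno3 was 1.62 ± 0.0344 (SD, n = 3). The coefficient of variation, the SD as a percentage of the mean, was 0.710% for Mb over Ckm, 1.43% for Mb over Eno3 and 2.12% for Ckm over Eno3. For the levels themselves it was 2.11% in Mb, 1.56% in Ckm and 3.25% in Eno3, so the ratio of Ckm to Eno3 varied more than Ckm itself. On the deposited scale Ckm was above Eno3 in each of the 3 columns. Dividing by length is of use only if the values were not already divided, which is not given. If the deposited values were not yet divided by length, dividing them by the longest principal GENCODE transcript (2742 bases for Ckm, 1564 for Eno3) would place Eno3 at 1.08 times Ckm, and the shorter coding transcript of Ckm (1235 bases) would place it at 0.486 times Ckm.

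Relative to the gene's own mean, control 1 stood at -2.43% for Mb, -1.71% for Ckm and -3.63% for Eno3. Many other rows were lowest in the same column. Among the 82 other rows averaging at least 10, 36 (43.9%) were lowest in control 1, 23 in control 2 and 23 in control 3. The median difference of these rows from their own mean was -1.42% in control 1, -0.433% in control 2 and 1.73% in control 3.

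All 3 genes varied less than the median of the 40 rows nearest to each in mean level. The means of those rows ran from 33.05 to 503.5 for Mb, 17.8 to 178.8 for Ckm and 14.3 to 87.4 for Eno3. The match in level was therefore loose. Among the 40 rows nearest to Mb in mean level, the median coefficient of variation was 3.28%, and 11 rows had a lower value than Mb. Near Ckm the median was 4.31%, and 3 of 40 rows had a lower value than Ckm. Near Eno3 it was 5.50%, and 11 of 40 rows had a lower value. These sets of neighbouring rows overlap one another and come from a table whose selection rule is not given, so the comparison is a description.

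**Figure D2:**
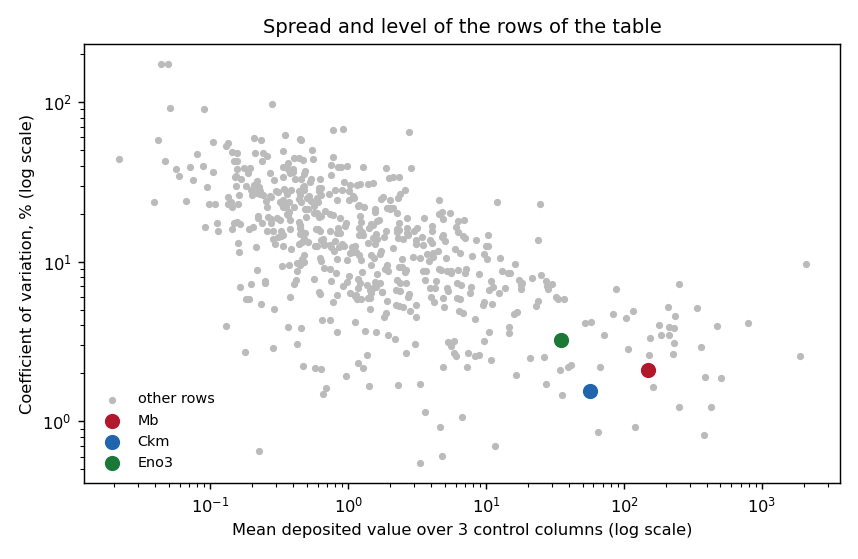
Coefficient of variation over the 3 control columns in percent (vertical, log scale) against the mean deposited value (horizontal, log scale) for the rows of the table in grey, with Mb, Ckm and Eno3 in colour. The 3 genes lie towards the right, at means of 150.2, 56.3 and 34.6, with coefficients of variation of 2.11%, 1.56% and 3.25%.

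The rows most like each gene over the 3 columns, by the root mean square difference of log2 values, included genes known from muscle, skin and hair. Nearest to Mb were Rbp7, a retinol-binding protein, with a mean of 154.9 ± 5.14 and a log2 difference of 0.0573; Mylpf, a regulatory myosin light chain of fast fibres, with 153 ± 3.97 and 0.0607; and Lce1k, a cornified envelope gene of skin, with 162 ± 2.64 and 0.117 (SD, n = 3). Mb and Mylpf were adjacent in rank and their ranges overlapped, while Lce1l, the next row below Mb, had a mean of 120.5 ± 1.12 with no overlap.

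Nearest to Ckm were Fmo9, of the flavin-containing monooxygenase family, at 57.6 ± 2.40, then Sprr2f, a small proline-rich envelope precursor of squamous epithelium, at 51.9 ± 2.16, then 2210017I01Rik at 64.7 ± 0.558 (SD, n = 3). Their log2 differences from Ckm were 0.0494, 0.120 and 0.201. The ranges of Ckm and Fmo9 overlapped, and those of Ckm and Sprr2f did not. Nearest to Eno3 were AU021092 at 34.6 ± 0.724, Ifit1bl1, a relative of the interferon-induced Ifit1, at 35.6 ± 0.521 and Krt32, a hair keratin, at 33.0 ± 1.92 (SD, n = 3). Their log2 differences from Eno3 were 0.0206, 0.0507 and 0.0759. Eno3 overlapped with the rows directly above and below it in rank, Ifit1bl1 and AU021092. Likeness here is of level over 3 replicate columns and says nothing of shared control.

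Other genes of the same supply routes were looked up in 11 lists with 91 different symbols. Of these, 24 were in the table, the 3 genes included (26.4%), and 67 were not among the rows analysed here. No share over all gene symbols was computed. As a rough guide in another unit, 465 of the 32851 mouse promoter windows belong to genes of the table, and a gene can have several windows. The lists were chosen with earlier results of these data known, so the share in the table was not tested. Because the table is a selection, a missing gene may still be expressed. Without Mb, Ckm and Eno3, 21 of 88 symbols were in the table, 14 of them with a mean of at least 1. Of all 570 rows, 306 had a mean of at least 1. The median of the 21 genes was 2.33, beside 1.18 over all rows. Mb, Ckm and Eno3 were the highest 3 of the 24, but they were chosen by their levels, so this order is no separate result.

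Oxygen binding proteins and creatine kinases had 1 further member each. Cygb, cytoglobin, a haem protein related to myoglobin that many cell types make, had 4.01, 3.57 and 3.39 in controls 1, 2 and 3, so the Mb value was 41.3 ± 4.29 times that of Cygb (SD, n = 3). The globins of red cells and of neurons on this list were not among the rows. Ckmt2, the mitochondrial creatine kinase of muscle, charges creatine where ATP is made, opposite Ckm, which spends phosphocreatine at the myofibrils. Ckmt2 had 25.2, 29.0 and 28.0, a mean of 27.4 ± 1.93, and Ckm was 2.06 ± 0.117 times as high (SD, n = 3). The brain form Ckb and the genes for creatine synthesis and uptake were not among the rows.

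In glycolysis the forms known from muscle were listed. Eno3 was the 1 enolase of 5 in the table. Pgam2, the muscle phosphoglycerate mutase that acts one step before enolase, stood at 18.2 ± 1.33, and Eno3 was 1.91 ± 0.104 times as high. Pfkm, the muscle phosphofructokinase that commits sugar to glycolysis, stood at 9.60 ± 0.539, and Eno3 was 3.61 ± 0.117 times as high (SD, n = 3). Gpd1, which links glycolysis to glycerol phosphate, was low at 0.564 ± 0.0442. These are 3 of 20 other glycolytic enzymes on the list, and the other 17 were not among the rows.

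For glycogen, 5 of 12 listed genes were in the table. Pygm, the muscle glycogen phosphorylase, had a mean of 6.49 ± 0.731 and Gys1, the muscle glycogen synthase, 2.33 ± 0.216 (SD, n = 3). The phosphatase subunits Ppp1r3c and Ppp1r3a, which target a phosphatase to glycogen, stood at 1.24 ± 0.127 and 0.386 ± 0.0465. Phkg1, the catalytic subunit of muscle phosphorylase kinase, stood at 0.461 ± 0.0611 (SD, n = 3).

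Mitochondrial and lipid supply was represented as well. Fabp3, a fatty acid carrier of the muscle cytoplasm, had 30.3, 27.3 and 26.7 in controls 1, 2 and 3 and came just below Eno3 among the listed genes, with no overlap. The muscle forms of cytochrome oxidase subunits, Cox7a1 and Cox8b, stood at 11.0 ± 0.603 and 11.9 ± 2.81 (SD, n = 3). Cox8b, which brown fat also makes, was the most uneven of the genes above 10 on these lists, with 14.9, 11.4 and 9.36 in the 3 columns. Lpl and Cd36, which release and take up fatty acids in many tissues, had means of 5.53 and 4.08, and Cpt1b, which brings fatty acids into muscle mitochondria, 1.37 ± 0.0356. Slc2a4, the insulin-responsive glucose transporter, stood at 1.70 ± 0.124 (SD, n = 3).

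The remaining listed genes were below 1. Actn3, a fast-fibre actinin that stood on the list of regulators although it is also a sarcomere protein, was at 0.920 ± 0.0646. Ampd1, the muscle AMP deaminase, was at 0.616 ± 0.170, Ucp3, a mitochondrial carrier of muscle, at 0.510 ± 0.0679 and Car14, a membrane carbonic anhydrase, at 0.338 ± 0.0422 (SD, n = 3). Of the 13 symbols on the list of regulators, Actn3 was the 1 in the table. The coefficient of variation of the 21 genes ran between 2.59% in Cpt1b and 27.6% in Ampd1, with a median of 8.77%. Control 1 was the lowest column for 7 of them, control 2 for 5 and control 3 for 9.

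**Figure D3:**
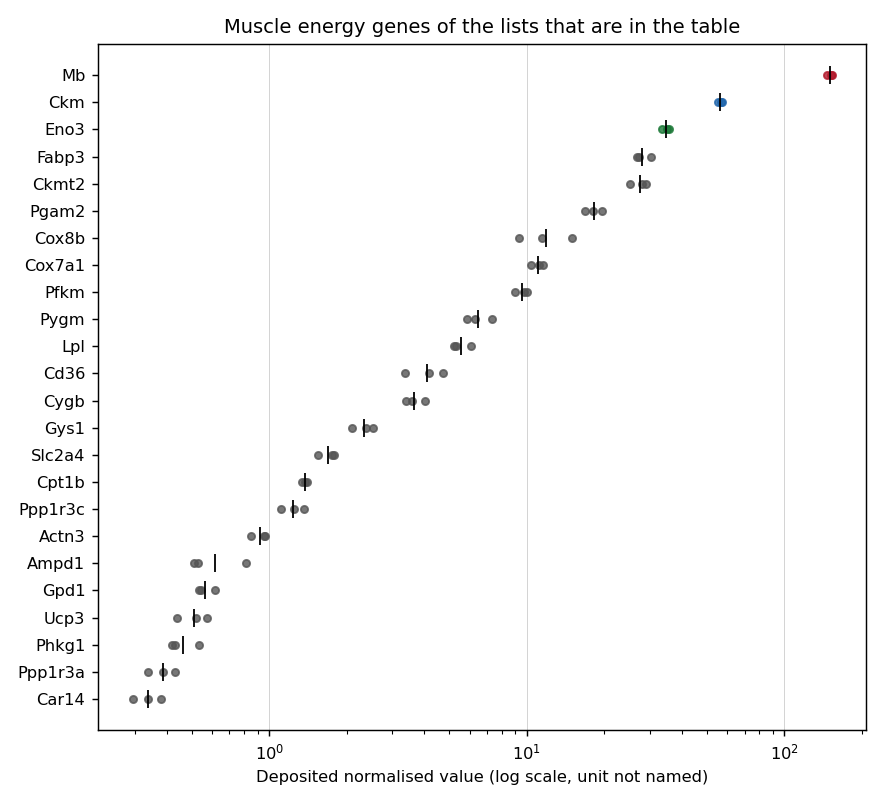
Deposited normalised values (horizontal, log scale, unit not named) of the 24 listed muscle energy genes that are in the table, 1 point per control column and a black tick at the mean, ordered by mean. Mb, Ckm and Eno3, in colour, were chosen by their levels. They lie above the other 21 genes, of which Fabp3 and Ckmt2, at 28.1 and 27.4, are nearest.

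Contractile genes were also present: 20 of 35 on a list of sarcomere and calcium handling genes were in the table. As a rough guide over all genes, 465 of the 32851 mouse promoter windows belong to genes of the table. The list was chosen with earlier results of these data known, so its share was not tested. The list is not limited to 1 fibre type. The highest were Acta1 at 186 ± 6.45, Mylpf at 153 ± 3.97, Myl1 at 87.4 ± 5.94, Myh1 at 20.9 ± 0.521 and Myoz1 at 16.2 ± 1.56 (SD, n = 3), so Mb lay with Mylpf, and Ckm and Eno3 lay between Myl1 and Myh1.

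The cell type label of the columns was set beside markers. Because the table is a selection, a marker that is not among its rows may still be expressed. These counts therefore do not tell which cells were present. They were not tested against the share over all genes, for which 465 of the 32851 promoter windows are a rough guide. Of 12 osteoclast markers, Car2 was in the table at 10.9 ± 0.829 (SD, n = 3), and the other 11, Acp5, Ctsk and Mmp9 included, were not among the rows; of 5 macrophage markers there were 0. Of 10 fast-fibre markers 5 were listed, with means between 0.744 and 153, and 2 of them had a mean of at least 5. Of 7 markers of slow fibres or heart there were 0. These short lists leave out other sarcomere genes of the table, so the counts do not tell the fibre type. Of 6 heart markers, Actc1 was listed at 0.553 ± 0.244, and of 5 markers of muscle precursors Des, which mature muscle also makes, at 14.3 ± 1.21 (SD, n = 3). Bglap, the osteocalcin gene, was the 1 of 4 markers of bone-forming cells in the table, at 36.7 ± 2.15, slightly above Eno3 by mean. Of 4 smooth muscle markers Cnn1 was listed at 0.446 ± 0.116, and of 3 brown fat markers Cox8b, given above (SD, n = 3). Red cell markers had 0 of 5 in the table. The match of these columns to osteoclast cultures rests on their names, and the part that muscle tissue had in them was not tested.

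Reads of Mb and Ckm may be shared with genes on the other strand. In the GENCODE annotation exons of Mb overlap the spans, introns included, of Apol6 and the antisense gene Gm49540. Exons of Ckm overlap the span of the antisense gene A930016O22Rik. Of the 50-base windows of the principal Mb transcript, 34.0% also occur in Gm49540, and 11.7% of those of Ckm occur in A930016O22Rik. No window of this Mb transcript was found in Apol6. No source used here says whether reads were counted by strand, and without strand such reads cannot be told apart. For Eno3, 0 of 1515 windows occur in the transcripts of any other gene, the enolase relatives included.

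The column sums over all rows lay between 13318 and 13620. Mb, Ckm and Eno3 together held 1.73%, 1.84% and 1.81% of the sums of controls 1, 2 and 3. The sums cover a selection of genes and are not library depths; the sequencing depth is unknown.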

How the data were processed

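The authors deposited 1 table of normalised expression signal for 570 rows; neither its header nor the labels name the unit. Bowtie2 2.4.4 is listed, per the submitters' processing notes, as are the builds GRCh37 and GRCm39, none with a stated role. No source used here names the quantification tool. The name of the deposited table calls it a final list of DEGs, that is, differentially expressed genes. The criteria for that list and the groups it compared are not stated. Whether presence in the table reflects such a call was not tested. All 261, 267 and 262 values between 0 and 1 in controls 1, 2 and 3 were distinct, so no common step of whole reads was seen and no count model was used. The 3 columns named for controls match the sample titles; the labels call those libraries by other names. A further 3 value columns carry a name that no label holds and were not used. The interferon-gamma comparison was therefore not made, and no p-value was computed. The labels do not say whether replicates were separate cultures, so SDs may be technical.

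Means, SDs, ranks, ratios and coefficients of variation were computed on the deposited values without a pseudocount or filter, with scripts checked on simulated data (Python 3.11.15, pandas 2.3.3, numpy 2.4.6, matplotlib 3.10.9). The genes and lists were chosen with earlier results of these data known. Besides the 3 genes, the text names the 3 rows nearest to each, all listed energy genes in the table and the 5 highest sarcomere genes. Lce1l, the row below Mb in rank, was named after its values were seen. Promoters are RefSeq's on GRCm38.p6 and transcripts GENCODE's on GRCm38, another build than those in the notes; no coordinate was carried between builds.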

Additional observations from a re-analysis of the deposited data

How the results depend on the processing

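No paired analysis was possible because 0 columns matched interferon-gamma samples; the alternatives planned for that comparison were not run for the same reason. Leaving out 1 control column in turn gave levels between 149 and 152 for Mb, 55.9 and 56.8 for Ckm and 34.2 and 35.3 for Eno3, and ratios between 0.373 and 0.376 for Ckm to Mb, 0.229 and 0.232 for Eno3 to Mb and 0.609 and 0.622 for Eno3 to Ckm. Mb moved between places 24 and 25, Eno3 between 42 and 43, and Ckm kept place 36. Adding 1 to each value gave 0.379 for Ckm to Mb and 0.236 for Eno3 to Mb, against 0.375 and 0.231 without it, shifts above 1 SD. Dividing by transcript length, an alternative chosen after seeing the data, gave 0.151 or 0.335 for Ckm to Mb (longer or shorter Ckm transcript), 0.163 for Eno3 to Mb, and 1.08 or 0.486 for Eno3 to Ckm, against 0.615 on the deposited scale. That division applies only if the deposited values were not yet divided by length, which is not given. Of the 24 listed energy genes in the table, 11 had a mean of at least 5. Of 53 alternative values, 21 (columns left out, or the median, for levels and ratios) cannot move by 1 SD with 3 columns and say nothing on stability. Of the other 32, 24 stayed within the spread between replicates or, for counts, ranks and coefficients of variation, within 1.5 times. The 24 include the ranks of the 3 genes over rows with a mean of at least 1. Those ranks could not change either, because only rows below the genes were dropped. The count with exact symbols only could not differ, because every match was exact. For ranks with a column left out, the limit of 1.5 times is wide. The coefficients of variation of Mb, Ckm and Eno3 were 2.11%, 1.56% and 3.25%, so these ranks say little on stability. Depth is unknown, so counting error cannot be given.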
